A study of Sus scrofa with 5 samples.

Results

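Branched-chain amino acids (leucine, isoleucine and valine) are broken down by transaminases and then by the branched-chain keto acid dehydrogenase, and the RNA of these enzymes was followed in pig backfat. The members are the 6 genes BCAT1, BCAT2, BCKDHA, BCKDHB, DBT and DLD, of 6765 genes that carried a single symbol on the array. Each probe set annotated with 1 of these symbols and no other was taken, which gave 7 probe sets, and every member had at least 1. Backfat was taken from 5 females of a backcross of Iberian × Landrace boars to Landrace sows, 1 Affymetrix porcine array per animal. They were fed the same cereal-based diet without restriction and slaughtered at a similar age. The study describes them as fasting at slaughter. BC4, BC5 and BC6 belonged to the H group, which had more polyunsaturated fatty acids in muscle, and BC2 and BC3 to the L group, which had more saturated and monounsaturated fatty acids. The groups were set by a principal component of carcass and muscle fatty acid traits, not by a treatment, and sibs were kept out of the same group. The arrays hold whole tissue, so that fewer cells of a type and less RNA per cell cannot be told apart.

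The transaminases move the amino group of a branched-chain amino acid onto 2-oxoglutarate, BCAT1 in the cytosol and BCAT2 in mitochondria. The keto acids that result are decarboxylated by a mitochondrial complex in the step that commits them to breakdown. BCKDHA and BCKDHB encode the alpha and beta subunits of its decarboxylase (E1), DBT the core that carries the lipoyl group and transfers the acyl group to coenzyme A (E2), and DLD the flavoprotein that reoxidizes the lipoyl group (E3). DLD also serves the pyruvate and 2-oxoglutarate dehydrogenases. Adipocytes use these amino acids as a carbon source for fatty acid synthesis, and their breakdown rises as fat cells mature.

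Values are on the log2 scale, and each difference is the mean of H minus the mean of L on that scale. The lowest value, 2.17, was shared by 5576 of 23999 probe sets on all 5 arrays and marks no measured level. Array medians ran from 4.21 to 4.29. The group contrast was fitted with limma over all 23999 probe sets, and a probe set counted as changed at a p of 0.01 and an adjusted p of 0.1 with at least a 1.2-fold difference. By this rule 0 of the 7 probe sets changed, and 0% of all probe sets did. At an unadjusted p under 0.05 limma gave 1 of the 7, the dimmer probe set of BCAT1, which was lower in H. That level was reached by 3.18% of all probe sets, and by 1.58% with H lower. The adjusted p was 1 in limma for every one of the 7, and SE stands for the standard error of a difference in that fit.

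BCKDHB had the largest difference of the members. Its log2 values were 10.50 on BC2 and 9.14 on BC3 in the L group, and 8.96 on BC4, 8.29 on BC5 and 8.81 on BC6 in the H group. Both L arrays lay above the 3 H arrays, but BC3 was 0.18 above the highest H array, whereas BC2 was 1.36 above BC3. H had a mean of 8.69 ± 0.350 (SD, n = 3) and L of 9.82 ± 0.961 (SD, n = 2), so that the mean of L was 2.19-fold that of H. The group means differed by -1.13 (SE 0.539, 95% interval -2.75 to 0.49). Leaving out L replicate 2 (BC2) gave -0.45, and leaving out L replicate 3 (BC3) gave -1.81. The range within the L group, 1.36, was thus wider than the difference between the groups.

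BCKDHA, the partner of BCKDHB in E1, did not follow it. Its log2 values were 8.82 on BC2 and 9.19 on BC3, and 9.67 on BC4, 9.78 on BC5 and 8.49 on BC6. Both the highest and the lowest value lay in the H group, so the groups overlapped. H had a mean of 9.31 ± 0.715 (SD, n = 3) and L of 9.00 ± 0.262 (SD, n = 2), which differed by 0.31 (SE 0.521, 95% interval -1.25 to 1.87). Without H replicate 6 (BC6) the difference was 0.72, and without H replicate 5 (BC5) it was 0.077. BC5 had the highest BCKDHA and the lowest BCKDHB, and BC2 the highest BCKDHB with the second lowest BCKDHA.

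The log ratio of BCKDHB to BCKDHA within each array, centred on the mean of the 5 arrays, was 1.73 and 0.00015 on the L arrays BC2 and BC3, and -0.66, -1.44 and 0.37 on the H arrays BC4, BC5 and BC6. The ratio of BC6 lay between those of the L arrays. H minus L of this log ratio was -1.44, and it was -0.58 without BC2 and -2.31 without BC3. An exact permutation test over the 10 splits of the animals cannot go below p = 0.1 and so could not pass a threshold (two-sided p = 0.3). This ratio was taken after the values of both subunits had been seen, and it is given as a description.

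DBT, the E2 core, was at 8.30 on BC2 and 7.36 on BC3, and at 6.99 on BC4, 7.11 on BC5 and 7.32 on BC6. H and L did not overlap, but BC3 exceeded BC6 by just 0.041, and BC2 exceeded the mean of the other 4 arrays by 1.10. These 4 arrays spanned 0.37. H had a mean of 7.14 ± 0.166 (SD, n = 3) and L of 7.83 ± 0.661 (SD, n = 2), which differed by -0.69 (SE 0.350, 95% interval -1.74 to 0.36). Leaving out BC2 gave -0.22, and leaving out BC3 gave -1.16.

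DLD, the E3 component shared with other dehydrogenases, differed least among the 4 subunits of the complex. Its values were 12.06 on BC2 and 11.63 on BC3, and 11.97 on BC4, 11.25 on BC5 and 11.72 on BC6. H and L overlapped, with BC4 and BC6 of the H group above BC3. H had a mean of 11.65 ± 0.366 (SD, n = 3) and L of 11.85 ± 0.302 (SD, n = 2), which differed by -0.20 (SE 0.299, 95% interval -1.10 to 0.70). Without L replicate 2 the difference was 0.012, which gives no direction, and without L replicate 3 it was -0.41.

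**Figure D1:**
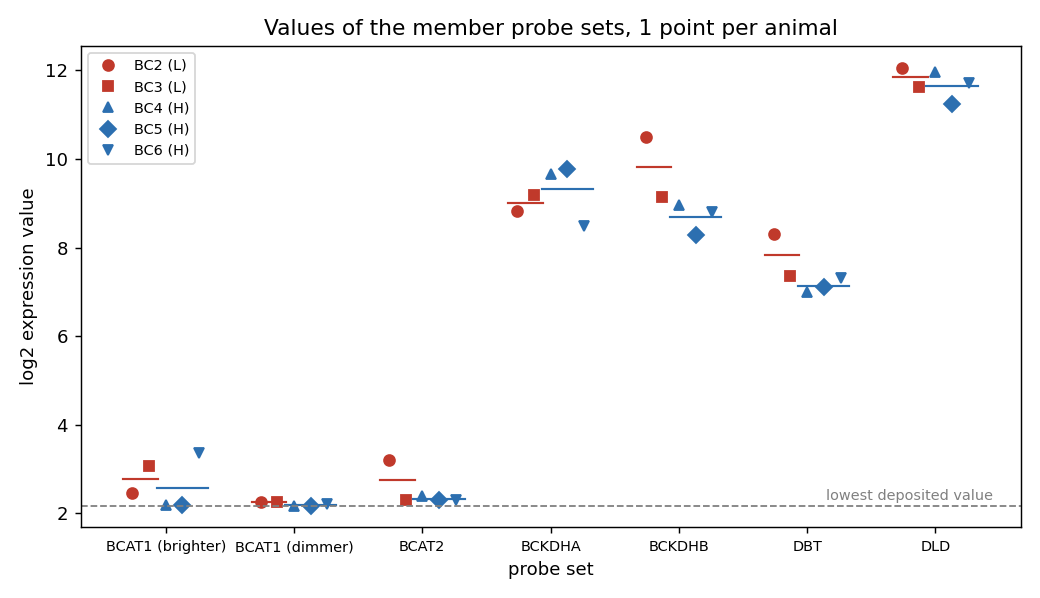
Log2 values of the 7 probe sets (vertical axis), each animal a point (L in red, H in blue), group means as short lines and a dashed line at the lowest deposited value. BC2 lies apart above the other arrays for BCKDHB (10.50) and DBT (8.30), while BCKDHA has its highest point on BC5 (9.78) and the transaminases lie near the dashed line.

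The transaminases were near the floor. BCAT2, the mitochondrial form, was at 3.19 on BC2 and 2.29 on BC3, and at 2.38 on BC4, 2.29 on BC5 and 2.29 on BC6. BC2 was 1.03 above the lowest deposited value, and the other 4 arrays spanned 0.090 near it. The difference was -0.42 (SE 0.321, 95% interval -1.39 to 0.54), and it was 0.031 without L replicate 2. Without L replicate 3 it was -0.87, which set the single array BC2 against H values near the floor.

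BCAT1, the cytosolic form, had 2 probe sets. The brighter one was at 2.45 on BC2 and 3.07 on BC3, and at 2.18 on BC4, 2.18 on BC5 and 3.35 on BC6. BC6 and BC3, from different groups, were its highest arrays, and the difference of -0.19 (SE 0.524, 95% interval -1.76 to 1.38) changed sign without L replicate 3 (0.12). The dimmer one ran from 2.17 to 2.26 over the 5 arrays, at most 0.088 above the floor. Its difference of -0.068 (SE 0.0157, 95% interval -0.12 to -0.021, unadjusted p = 0.0177 in limma) was therefore between values that hardly left the floor.

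BCAT1 and BCAT2 each gave exactly equal values on a pair of arrays, BC4 and BC5 for both probe sets of BCAT1 and BC5 and BC6 for BCAT2. Among probe sets above the floor on all arrays, equal values on at least 1 pair of arrays were found in 85.2% of those with a mean under 3, and in 3.41% of those with a mean from 6 to 12. No pair of arrays was equal for BCKDHA, BCKDHB, DBT or DLD. The transaminase values thus lay where equal values are common, and the order of the animals is less certain there. The brighter BCAT1 probe set still spanned 1.17 over the arrays. The 4 subunits of the dehydrogenase were measured well above the floor.

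**Figure D2:**
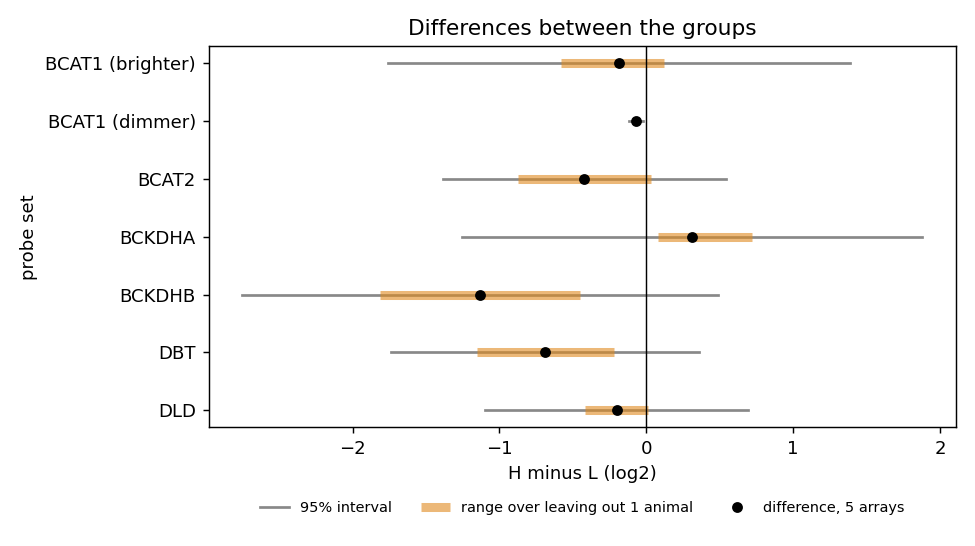
Difference H minus L on the log2 scale (horizontal axis) for each of the 7 probe sets, with the 95% interval from limma (grey) and the range of the difference when 1 animal at a time is left out (orange). The interval includes 0 for all but the dimmer probe set of BCAT1, and the orange range runs from -1.81 to -0.45 for BCKDHB and from -1.16 to -0.22 for DBT.

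The mean of H was below that of L for 6 of the 7 probe sets (5 of the 6 genes), against 43% of the 17132 probe sets above the floor on all arrays. For 3 of the 7, BCKDHB, DBT and the dimmer probe set of BCAT1, the H arrays lay below both L arrays, against 7.75% of those 17132. By gene it was 2 of 6, since the dimmer probe set of BCAT1, which hardly left the floor, does not stand for its gene. For 0 of the 7 did the H arrays lie above the L arrays, against 9.18%. The median difference of the 6 genes was -0.31, beside 0.0034 for the 17132 probe sets. A difference as low as that of BCKDHB was found in 0.753% of them, as low as that of DBT in 2.87% and as low as that of DLD in 19.0%. The 17132 include 3523 probe sets with a mean under 3, well below the dehydrogenase subunits. The 6 genes were not drawn independently of each other, and these shares are descriptions.

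**Figure D3:**
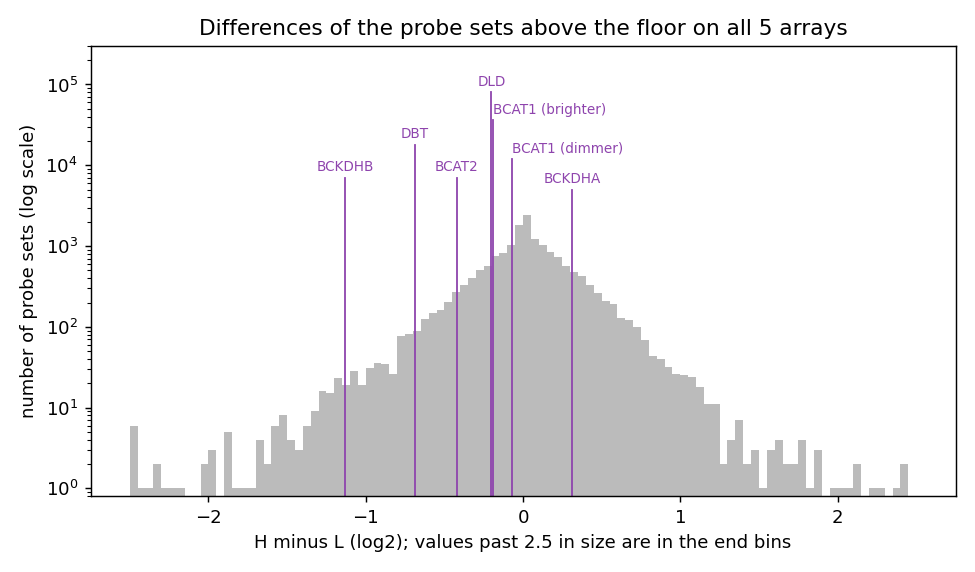
Number of probe sets (vertical axis, log scale) by difference H minus L on the log2 scale (horizontal axis) for the 17132 probe sets above the floor on all 5 arrays, with a line for each of the 7 probe sets, whose height has no meaning. BCKDHB (-1.13) and DBT (-0.69) lie in the left tail, DLD (-0.20) and BCAT1 (-0.19 and -0.068) near the centre, and BCKDHA (0.31) right of it.

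One animal of the L group stood out among the members. BC2 had the highest value for 5 of the 7 probe sets, those of BCAT2, BCKDHB, DBT and DLD and the dimmer one of BCAT1. By gene it was 4 of 6, and over the 17132 probe sets BC2 was highest for 19.6%. BC2 exceeded BC3 for the same 5 probe sets, by 1.36 for BCKDHB, 0.93 for DBT, 0.91 for BCAT2, 0.43 for DLD and 0.011 for the dimmer BCAT1 probe set. BC2 minus BC3 was -0.62 for the brighter BCAT1 probe set and -0.37 for BCKDHA. Over the 17132 probe sets BC2 exceeded BC3 in 41.8%. Of these probe sets, 3523 had a mean under 3, where equal values are common. A tie counted neither as exceeding nor as highest, which can only lower both shares. Without L replicate 2, the mean of H was below that of L for 3 of the 6 genes, BCAT1, BCKDHB and DBT.

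Among themselves, the members varied over the animals in different ways. Likeness was measured as the mean absolute difference over the 5 arrays between log2 values centred on their mean, and smaller is more alike. DBT and BCKDHB were 0.312 apart. Of 5769 other genes above the floor, 1.87% were closer to BCKDHB than DBT was, and 14.7% were closer to DBT than BCKDHB was. DLD was 0.303 from DBT, with 12.5% of the 5769 genes closer to DBT than DLD was. In the other direction, 54.5% were closer to DLD than DBT was. BCAT2, near the floor, was 0.169 from DBT, with 0.676% closer to DBT and 4.06% closer to BCAT2. BCKDHA and BCKDHB, the subunits of the same enzyme, were 0.839 apart, and 92.3% of the 5769 genes were closer to BCKDHB than BCKDHA was. The genes most like each member were as follows, over 5 arrays and with no test. BCKDHB was nearest to DHRS7 (0.0778), PEX3 (0.147) and DYNC1I1 (0.147), and DBT to IZUMO4 (0.0735), WDR19 (0.0876) and FDPS (0.0986). DLD was nearest to TMEM120A (0.0260), ACADM, the medium-chain acyl-CoA dehydrogenase (0.0371), and CHPT1 (0.0641). BCKDHA was nearest to LOC100510975 (0.0984), WDR92 (0.124) and SERTAD2 (0.139). Near the floor, where the order of the animals is poorly measured, BCAT2 was nearest to LHPP (0.0344), CRABP2 (0.0366) and PDE3A (0.0439), and BCAT1 to CA12 (0.0733), CEBPD (0.0849) and FAM46A (0.0977).

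The genes that control the dehydrogenase and supply its substrate were measured in part. Of 10 listed, 4 had a probe set and 0 changed in either direction, with an adjusted p of 1 in limma for each gene of this list and of the lists that follow. BCKDK, the kinase that inactivates the complex by phosphorylating E1, was at 7.49 on BC2 and 7.26 on BC3, and at 7.58 on BC4, 7.12 on BC5 and 6.87 on BC6. Its groups overlapped, and the difference was -0.18 (SE 0.265), with a range from -0.38 to -0.026 when 1 animal was left out. PPM1K, the phosphatase that reactivates the complex, had no probe set under its symbol alone. KLF15, a transcription factor that induces branched-chain amino acid breakdown, was at 8.56 and 8.23 in L and at 7.92, 7.83 and 8.15 in H. Both L arrays lay above the H arrays for KLF15, which differed by -0.43 (SE 0.165, unadjusted p = 0.0719 in limma), and by -0.26 without L replicate 2. SLC3A2, the heavy chain of amino acid transporters, differed by -0.21 (SE 0.438), and leaving out 1 animal gave -0.42 to 0.13, so that its direction turned. SLC6A14 was at the floor on all arrays.

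DLD works in other complexes too, and the genes listed with them, which include LIAS and LIPT1 of the lipoyl group supply, gave mixed directions. Of 11 listed genes 8 were measured, with 5 means lower and 3 higher in H, a median of -0.23 and 0 past the thresholds. Of the 3 higher ones, OGDH differed by 0.019, AMT was at 3.19 on BC5 and 2.78 on every other array, and the third was DLST. The median was -0.086 without L replicate 2. DLST, the E2 core of the 2-oxoglutarate dehydrogenase, was at 8.59 on BC2 and 8.58 on BC3, and at 8.95 on BC4, 8.98 on BC5 and 8.84 on BC6. Every H array was above the L pair, opposite to DBT, and the means differed by 0.34 (SE 0.0508, unadjusted p = 0.00482 in limma, where its adjusted p was 1). It ran from 0.31 to 0.38 when 1 animal was left out. DLAT, the E2 core of the pyruvate dehydrogenase, differed by -0.58 (SE 0.438), and by -0.015 without L replicate 2. PDHA1, the alpha subunit of its E1, differed by -0.31 (SE 0.232), and LIAS, which makes lipoyl groups, by -0.74 (SE 0.513).

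The enzymes after the dehydrogenase were lower in H by their means in 11 of 11 measured genes, of 19 listed, with a median of -0.58 and 0 past the thresholds. Of the 17132 probe sets above the floor on all arrays, 43% had a lower mean in H. BC2 was the highest array for all 11, as for BCKDHB and DBT, and for 19.6% of the 17132. MMAB, 1 of the 11, was near the floor, at 2.80 on BC2 and 2.63 on every other array. AUH, a hydratase of leucine breakdown, differed by -0.66 (SE 0.339), ACADSB, which acts on isoleucine, by -0.99 (SE 0.573), HIBCH, a hydrolase of valine breakdown, by -0.60 (SE 0.289) and HSD17B10, of isoleucine breakdown, by -0.48 (SE 0.252). Leaving out BC2 moved the median to -0.097, with 7 means lower and 3 higher in H, and leaving out BC3 moved it to -0.93. The second probe sets of AUH, ACADSB and ACAD8 differed by -0.78, -1.24 and -0.29. IVD, which acts on leucine, had 3 further probe sets, of which those at -1.38 and -0.99 were lower in H by their means and the dimmest, at 0.98, was higher. IVD and ACAD8 were named after their values had been seen.

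**Figure D4:**
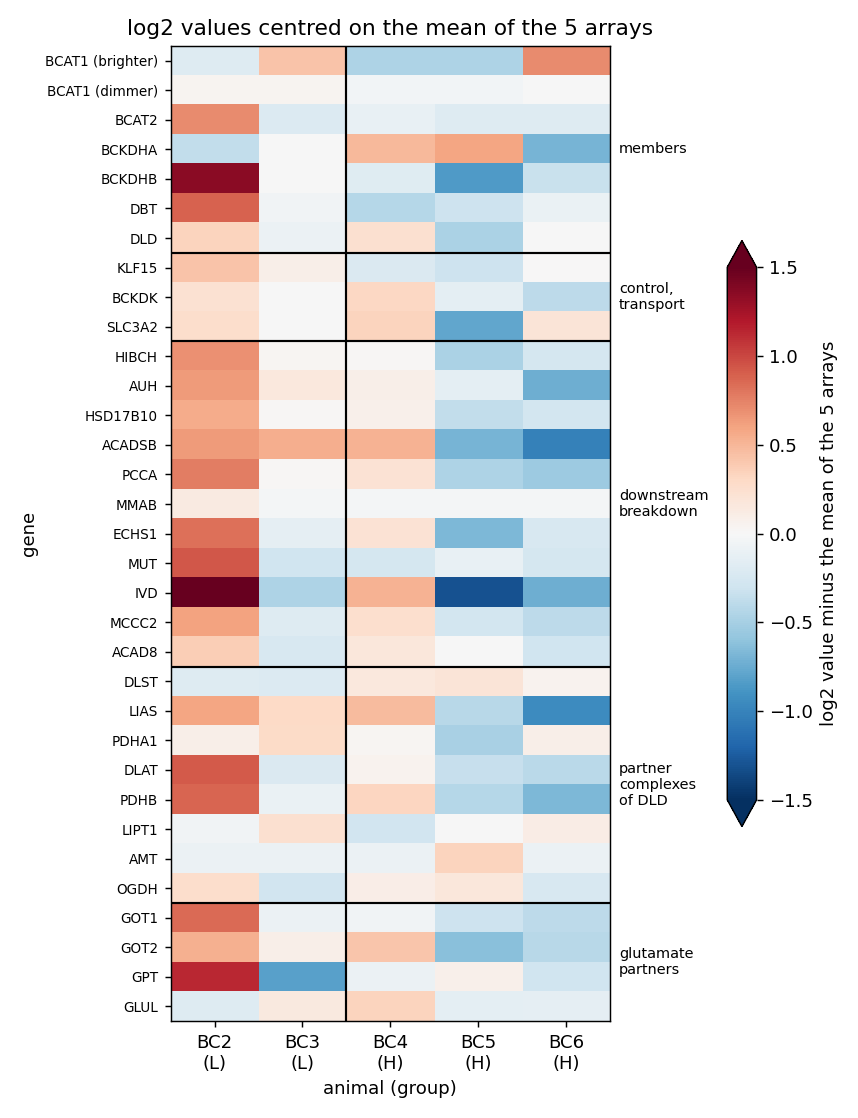
Log2 values centred on the mean of the 5 arrays (colour, red above and blue below the mean), by gene (rows, grouped by list) and animal (columns, L left of the vertical line and H right of it). The BC2 column is above the mean for BCAT2, BCKDHB, DBT, DLD and all 11 genes of downstream breakdown. It is below the mean for the brighter BCAT1 probe set, BCKDHA, DLST, LIPT1, AMT and GLUL.

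The arrays differed in markers of other cell types. Of 9 adipocyte markers 7 had a probe set, and their mean level was 12.40 on BC2 and 12.02 on BC3 in L. In H it ran from 11.15 (BC5) to 12.35 (BC6), so BC2 had the highest mean. BC2 exceeded BC3 for each of the 7, although LIPE was 12.17 on both after rounding, and BC2 was the highest array for 1 of them. FABP4 ran from 15.36 to 15.49, LEP from 4.41 on BC5 to 10.48 on BC6, and ADIPOQ from 9.09 on BC5 to 12.20 on BC4. The extraction note of the labels names liver, while the tissue label names backfat. Of 9 hepatocyte markers 8 had a probe set, and the mean level of the 7 above the floor on some array was 3.91 and 4.44 in L and 4.01 to 4.42 in H. The hepatocyte markers SERPINA1, TTR and CYP2E1 were at most 2.23, near the floor, and ALB ran from 2.58 to 4.69, although APOA1 ran from 11.29 to 12.57. Over 7 of 10 skeletal muscle markers the mean level was 5.75 on BC5 and 4.19 on BC3, and 2.51 to 2.90 on the other arrays. BC5 had the highest value for each of the 7, and it was also the highest array for BCKDHA and the lowest for BCKDHB and DLD. Over 9 of 9 endothelial markers the mean level was 7.49 on BC2 and 7.97 on BC3 in L, and 7.67 to 8.57 in H, and over 5 of 6 smooth muscle markers it was 7.60 on BC2 and 8.84 on BC3 in L, and 8.20 to 9.31 in H. BC2, the highest array for BCKDHB and DBT, was thus the lowest for the mean of both vascular lists. The means of 5 of 8 macrophage markers were 5.52 and 5.90 in L and 5.09 to 6.64 in H, those of 4 fibroblast and preadipocyte markers above the floor 11.37 on both L arrays and 10.64 to 12.05 in H. Of 9 lymphocyte markers 6 were measured, and CD3D, CD3E and CD3G were at the floor on all arrays. The part of these markers in the differences of the members was not tested.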

How the data were processed

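Backfat RNA of 3 H and 2 L pigs was hybridized to Affymetrix porcine arrays. The authors deposited log2 values per probe set, background-corrected and normalized across arrays. GCRMA is named for this in the methods and RMA in the submitters' processing notes, so the step is not settled. No genome build was used here with the probe set values, and no coordinates or sequences are printed.

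The labels give animal names, and the group of each animal followed the study's account. After removal of 124 controls from 24123 probe sets, 23999 were fitted in R 4.3.3 (limma 3.58.1) with group as the sole term and Benjamini-Hochberg adjustment. Thresholds were those of the study's methods (p of 0.01, adjusted p of 0.1, 1.2-fold). A single symbol was annotated to 10069 probe sets, several symbols to 198 and no symbol to 13732. A gene with several probe sets is represented by its brightest one over the arrays.

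The members, the lists and the rule for named genes were chosen with earlier results of these data known. Named are the members, the 4 genes of each list with the smallest p, BCKDK and PPM1K. The 3 genes most like each member are named too, and other genes as markers. Outside this rule, IVD, ACAD8, MMAB, OGDH, AMT and LIPT1 are also named. Alternatives were another threshold, dropping the dimmest 40% of probe sets, median centring, quantile scaling, an intensity trend, robust or unmoderated variances, array weights, averaging a gene's probe sets, and leaving out each animal. The fit was tested on simulated data. The number of arrays limits the precision.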

Additional observations from a re-analysis of the deposited data

How the results depend on the processing

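No paired analysis was possible because no animal number occurs in both groups. With all 5 arrays, no alternative scaling, filter, variance model or array weight gave a call for any probe set. At an unadjusted p under 0.05 there were 762 probe sets, 1 of them a member (BCAT1, dimmer probe set) and 1 a partner of DLD (DLST). Leaving out 1 animal gave 0 to 286 calls over all probe sets: 286 without L replicate 3, 160 without L replicate 2 and 0 without any H replicate. Among the members it gave 0 to 1 (BCAT2, without L replicate 3). Each fit without an L replicate sets a single L array against H, so its calls are not read as group differences. The number of member genes with a lower mean in H was 3 to 5 over the fits with 1 animal left out. Fewer arrays enter these fits, and the cause was not tested otherwise. When 1 animal was left out, the difference of the brighter BCAT1 probe set ran from -0.58 to 0.12 and was 0.0064 without H replicate 4 or H replicate 5, that of BCAT2 from -0.87 to 0.031 and that of DLD from -0.41 to 0.012. The directions of BCKDHA (0.077 to 0.72), BCKDHB (-1.81 to -0.45) and DBT (-1.16 to -0.22) did not turn. Signal over background limits BCAT1 and BCAT2.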

Other observations

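The transaminases share glutamate and 2-oxoglutarate with other enzymes, and 4 of 7 listed partners were measured. GOT1, the cytosolic aspartate transaminase, was at 8.62 on BC2 and 7.68 on BC3, and at 7.72 on BC4, 7.47 on BC5 and 7.38 on BC6, and the group means differed by -0.63 (SE, the standard error in limma, 0.355). GOT2, the mitochondrial form, differed by -0.52 (SE 0.419) and GPT, the alanine transaminase, by -0.26 (SE 0.700). Without L replicate 2, GPT differed by 0.71. BC2 was the highest array for GOT1, GOT2 and GPT, as for BCAT2, and for 19.6% of the 17132 probe sets above the floor on all arrays. GLUL, the glutamine synthetase, differed by 0.044 (SE 0.230), with its highest value on BC4. A second probe set of GLUL above the floor differed by 0.36. Of these 4 genes, limma gave 0 past the thresholds and 0 with an unadjusted p under 0.05, and the median difference was -0.39, or -0.14 without L replicate 2 and -0.92 without L replicate 3.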
